A study of Saccharomyces cerevisiae with 4 samples.

Results

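Amino acid permeases are membrane proteins that carry amino acids into the yeast cell. The 10 genes described here encode 10 such permeases and were taken by their systematic identifiers. They are AGP1, GNP1, BAP2, BAP3, TAT1, TAT2, DIP5, HIP1, LYP1 and CAN1, and all 10 were among the 6688 gene identifiers of the deposited table. The samples were polyadenylated RNA of nhp6ab cells and of WT cells of the budding yeast Saccharomyces cerevisiae. Both strains were growing exponentially in YPD, a rich glucose medium, and each gave 2 libraries. The name nhp6ab is the usual one for a strain without NHP6A and NHP6B, which encode closely related HMG-box proteins that bend DNA and work with the histone chaperone FACT. The labels give neither the strain background, nor the form of the deletions, nor whether the replicates were separate cultures. The p-values therefore measure how far these libraries differ, and that spread may be technical.

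Yeast senses amino acids outside the cell with the SPS sensor, a complex of Ssy1, Ptr3 and Ssy5 at the plasma membrane. When it is engaged, the protease Ssy5 cuts the factors Stp1 and Stp2, which enter the nucleus and activate permease genes, among them AGP1, GNP1, BAP2, BAP3, TAT1 and DIP5. HIP1, LYP1 and CAN1 are not known as main targets of this route, and their products each take up a narrow set of amino acids. Permeases leave the endoplasmic reticulum with the help of Shr3, and they are removed from the plasma membrane after the ligase Rsp5 and its arrestin-like adaptors tag them with ubiquitin.

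In nhp6ab cells, TAT2, HIP1 and LYP1 rose, and BAP2, BAP3 and TAT1 fell when libraries were scaled by TMM, whereas with library size alone or on the TPM scale none of the 10 was called lower (12.5 and 9.61% of all genes were) and BAP2 turned to a small positive value on the TPM scale. The proteins of the first set take up tryptophan and tyrosine (Tat2), histidine and lysine, and those of the second set take up branched-chain amino acids and, for Tat1, tyrosine as well. The changes were small, with fitted folds (nhp6ab over WT) between 0.758 for BAP3 and 1.37 for TAT2. AGP1, GNP1, DIP5 and CAN1 were not called. A gene was called when its p, adjusted over 6422 genes by Benjamini and Hochberg, was under 0.05 in the quasi-likelihood test of edgeR. Of these genes 49.5% were called, 24.5% higher and 25.0% lower in nhp6ab, so 3 of 10 in each direction is near the share of all genes. The median log2 fold change of the 10 genes was -0.042, against 0.007 over all genes tested. In bulk RNA, fewer cells that express a gene and less of its RNA per cell cannot be told apart.

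NHP6A and NHP6B, the targeted genes, were both lower in the libraries labelled nhp6ab. NHP6A averaged 11.6 CPM in nhp6ab and 126 CPM in WT (log2 fold change -3.44 ± 0.07 SE), and NHP6B averaged 33.0 CPM in nhp6ab and 83.0 CPM in WT (-1.33 ± 0.06). Expected counts summed to 29115870 and 28721743 in nhp6ab and to 27581468 and 22622592 in WT. The permease genes held 0.240 and 0.220% of them in nhp6ab and 0.188 and 0.199% in WT. The genes specific to alpha cells were abundant in both strains and those specific to a cells were not. MF(ALPHA)1, the main alpha-factor gene, had 1621 and 1874 TPM in nhp6ab and 1266 and 1263 TPM in WT, and no library had more than 6.79 TPM of any of 5 a-specific genes.

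The permease genes belong to a single family and resemble each other. Over 45 pairs of coding sequences the identity ran from 57.5 to 71.2%, with a median of 60.5%. The closest pairs were AGP1 and GNP1 (71.2%), BAP2 and BAP3 (70.0%) and LYP1 and CAN1 (68.8%). The longest stretch that any pair shared without a mismatch was 47 bases, between AGP1 and GNP1. The read length is not given in the sources used here. All 10 genes have a single coding exon of 1773 to 1992 bases.

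The upstream sequences are shown for the 6 called genes because the number of CGGC matches differed among them. CGGC is the core of the element through which Stp1 and Stp2 act. Each line is the stretch from 500 to 301 bases before the start codon in the R64 reference from RefSeq, 5′ to 3′ on the gene's own strand, with CGGC on either strand in capitals. This stretch was chosen after the positions of the matches were seen. The 4 matches of LYP1 and the 1 of HIP1 within 600 bases lie outside it, so their lines show none. In the same stretch of the genes that were not called, GNP1 had 5 matches, AGP1 had 2, CAN1 had 1 and DIP5 had 0. The first 3 are those of the genes called lower, BAP2 (chrII:375991-376190 (minus strand)), BAP3 (chrIV:550877-551076 (minus strand)) and TAT1 (chrII:378734-378933 (minus strand)). The last 3 are those of the genes called higher, TAT2 (chrXV:285672-285871 (plus strand)), HIP1 (chrVII:879920-880119 (plus strand)) and LYP1 (chrXIV:138050-138249 (plus strand)).
BAP2: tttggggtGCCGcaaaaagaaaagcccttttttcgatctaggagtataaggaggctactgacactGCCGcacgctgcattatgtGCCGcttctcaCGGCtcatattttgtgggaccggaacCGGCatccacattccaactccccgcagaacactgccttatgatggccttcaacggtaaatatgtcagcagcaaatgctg
BAP3: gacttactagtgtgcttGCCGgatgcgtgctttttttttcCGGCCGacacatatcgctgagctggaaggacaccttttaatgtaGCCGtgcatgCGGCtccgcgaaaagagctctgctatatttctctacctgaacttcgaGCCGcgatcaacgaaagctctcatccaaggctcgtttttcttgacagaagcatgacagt
TAT1: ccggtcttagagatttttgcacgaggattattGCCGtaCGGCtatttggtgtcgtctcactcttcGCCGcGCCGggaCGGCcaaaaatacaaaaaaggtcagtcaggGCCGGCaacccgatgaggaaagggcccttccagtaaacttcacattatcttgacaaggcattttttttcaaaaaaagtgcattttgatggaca
TAT2: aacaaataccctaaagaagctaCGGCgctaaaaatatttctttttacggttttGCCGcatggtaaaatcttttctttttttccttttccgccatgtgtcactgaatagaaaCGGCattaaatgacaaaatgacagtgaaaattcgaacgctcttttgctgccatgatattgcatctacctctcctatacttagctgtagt
HIP1: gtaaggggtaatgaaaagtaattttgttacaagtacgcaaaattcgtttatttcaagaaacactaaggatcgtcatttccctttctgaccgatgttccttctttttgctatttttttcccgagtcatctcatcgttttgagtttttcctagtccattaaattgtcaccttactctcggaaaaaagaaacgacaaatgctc
LYP1: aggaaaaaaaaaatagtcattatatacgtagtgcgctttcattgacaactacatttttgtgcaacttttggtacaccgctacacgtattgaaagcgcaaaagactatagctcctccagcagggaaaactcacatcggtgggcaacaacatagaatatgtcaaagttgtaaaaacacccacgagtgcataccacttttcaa

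Within 600 bases before the start codon, CGGC was matched 7 times in BAP3 and 8 times in BAP2 and in TAT1, counting both strands and overlapping matches. LYP1 had 4 matches, TAT2 had 3 and HIP1 had 1. Of the genes that were not called, AGP1 had 9, GNP1 had 7, DIP5 had 5 and CAN1 had 1. At least 5 matches were found in 6 of the 10 permease genes and in 5.75% of 6001 promoters of the same length, whose median was 1. These 6 are the targets of Stp1 and Stp2 named above, and the cut of 5 is the count of DIP5, the lowest among them. The 3 genes called lower with TMM had more matches than the 3 called higher. BAP2, BAP3 and TAT1 were already named as targets, so this difference is not separate information on their fold changes. AGP1, with the most matches of all, had a positive log2 fold change. A link between matches and fold change was not tested. TGACTC, the core that Gcn4 binds, was found in 4 of the 10 windows (AGP1, BAP2, HIP1 and CAN1) and in 15.3% of all promoters. GATAAG, bound by the GATA factors of nitrogen control, was found in AGP1 and CAN1 and in 26.8% of all promoters. TATAAA was found in 3 of the 10 windows and in 65.3% of all promoters. Within 300 bases, CGGC was found in 4 of the 10 permease genes and in 47.4% of all promoters. In this shorter window LYP1 had 2 matches, BAP2 and HIP1 had 1 each, and BAP3, TAT1 and TAT2 had 0. A match is a run of letters and was not tested as a binding site.

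The levels per length, as TPM, put AGP1 first in both strains. AGP1 (YCL025C; chromosome III, 76018 to 77919, minus strand) encodes a permease of broad specificity. Its level was 254 and 198 TPM in nhp6ab and 136 and 155 TPM in WT. The 2 groups did not overlap, but the nhp6ab libraries lay far apart. LYP1 was the second in nhp6ab, with 166 and 162 TPM, and the fourth in WT, with 100 and 105 TPM. In nhp6ab it was followed by BAP2 and GNP1, which overlapped each other, then by DIP5. HIP1, BAP3 and TAT1 came next, and the range of BAP3 overlapped those of HIP1 and TAT1. TAT2 (52.9 and 52.6 TPM) and CAN1 (47.6 and 44.9 TPM) were lowest in nhp6ab. In WT, AGP1 was followed by BAP2, GNP1, LYP1, DIP5, BAP3, TAT1, HIP1, CAN1 and TAT2 in order of their means. The ranges of LYP1 and DIP5 overlapped in WT, as did those of CAN1 and TAT2.

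**Figure D1:**
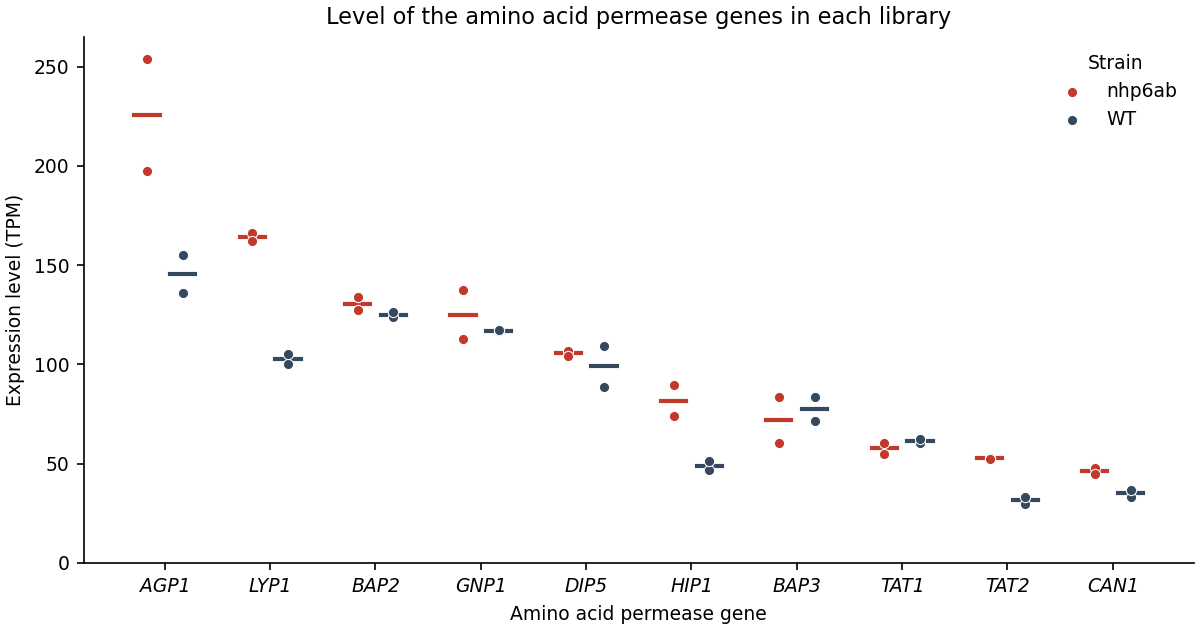
Level of each amino acid permease gene (TPM, linear axis from 0) in the 2 nhp6ab libraries and the 2 WT libraries. Points are libraries and bars are group means. LYP1, HIP1 and TAT2 are clearly separated between strains, whereas GNP1, BAP3, TAT1 and DIP5 overlap on this scale. Both nhp6ab libraries of BAP2 lie slightly above WT. The median gene of the table was 0.283 higher in nhp6ab on the log2(TPM + 1) scale.

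The 10 genes together had 1109 and 1014 TPM in nhp6ab and 806 and 881 TPM in WT. The log2 ratio of these means was 0.33, while the median gene of the table was 0.283 higher in nhp6ab on the log2(TPM + 1) scale. On the TMM-scaled CPM scale the sums were 2265 and 2010 CPM in nhp6ab and 2030 and 2130 CPM in WT, and they overlapped. With library size alone the median gene was 0.220 higher in nhp6ab. Fold changes below are TMM-scaled unless another scale is named, and with no spike-in they say how a gene stood against the other transcripts.

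TAT2 (YOL020W; chromosome XV, 286172 to 287950, plus strand) encodes the high-affinity tryptophan and tyrosine permease. It had 103 and 99.7 CPM in nhp6ab and 71.3 and 77.3 CPM in WT. Both nhp6ab libraries were above both WT libraries, and the pairs were tight. Its log2 fold change was 0.45 ± 0.06 SE, with an adjusted p = 0.00115 in edgeR. LYP1 (YNL268W; chromosome XIV, 138550 to 140385, plus strand) encodes the lysine permease. It had 334 and 318 CPM in nhp6ab and 248 and 251 CPM in WT. The strains were far apart relative to the gap between replicates. LYP1 had a log2 fold change of 0.38 ± 0.06 SE, with an adjusted p = 0.00182 in edgeR. TAT2 and LYP1 kept their calls in all 11 alternative fits, with log2 fold changes of 0.39 to 0.51 and of 0.34 to 0.42 when 1 library was left out.

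HIP1 (YGR191W; chromosome VII, 880420 to 882231, plus strand) encodes the high-affinity histidine permease. It had 178 and 143 CPM in nhp6ab and 114 and 121 CPM in WT. Both nhp6ab libraries were above WT, with replicate 1 well above replicate 2. EdgeR gave a log2 fold change of 0.45 ± 0.10 SE and an adjusted p = 0.00987. The call was lost without WT replicate 1 (0.41, adjusted p = 0.107) and without WT replicate 2 (0.49, adjusted p = 0.0731), and the value was 0.27 without nhp6ab replicate 1 and 0.60 without nhp6ab replicate 2. HIP1 ends 580 bases from the end of TDH3, which is transcribed towards it and had a mean of 23174 CPM in nhp6ab and 28931 CPM in WT. The part of TDH3 reads in the HIP1 count was not tested.

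CAN1 (YEL063C; chromosome V, 31694 to 33466, minus strand) encodes the arginine permease, through which the toxic analogue canavanine enters. It had 92.5 and 84.8 CPM in nhp6ab and 79.5 and 84.7 CPM in WT. The nhp6ab values lay above those of WT by very little. CAN1 was not called, with a log2 fold change of 0.11 ± 0.07 SE (95% interval -0.04 to 0.27, adjusted p = 0.199 in edgeR). Its value was 0.04 without nhp6ab replicate 1 and 0.17 without nhp6ab replicate 2. CAN1 was called higher with library size alone (0.32) and on the log2(TPM + 1) scale (0.39), where 47.1 and 55.5% of all genes were called higher.

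AGP1 and GNP1, the most similar pair, had fold changes of opposite sign, and neither was called. AGP1 had 530 and 402 CPM in nhp6ab and 350 and 384 CPM in WT. The lower nhp6ab library was close to the higher WT library. AGP1 had a log2 fold change of 0.34 ± 0.13 SE (95% interval 0.05 to 0.64, adjusted p = 0.0574 in edgeR). It was called with library size alone (0.55), on the log2(TPM + 1) scale (0.62) and without nhp6ab replicate 2 (0.53, adjusted p = 0.0013), and it was 0.12 without nhp6ab replicate 1. GNP1 (YDR508C; chromosome IV, 1466453 to 1468444, minus strand), the high-affinity glutamine permease gene, had 300.3 and 240.1 CPM in nhp6ab and 315 and 304 CPM in WT. The first nhp6ab library was close to WT and the second was well below it. Its log2 fold change was -0.19 ± 0.10 SE (95% interval -0.44 to 0.05, adjusted p = 0.157) and turned to 0.015 with library size alone. Without nhp6ab replicate 1 GNP1 was called lower (-0.37, adjusted p = 0.00566). Within each library, the ratio of AGP1 to GNP1 in TPM was 1.85 and 1.75 in nhp6ab and 1.17 and 1.32 in WT. This ratio does not depend on the scaling, its groups did not overlap, and it was not tested.

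BAP2 and TAT1 lie next to each other on chromosome II and are transcribed in the same direction. BAP2 (YBR068C; 373861 to 375690, minus strand) encodes a high-affinity permease for leucine, isoleucine and valine. It had 269 and 249 CPM in nhp6ab and 306 and 300.5 CPM in WT. Both nhp6ab libraries were below both WT libraries. In edgeR BAP2 had a log2 fold change of -0.23 ± 0.06 SE and an adjusted p = 0.0211. The call was lost without nhp6ab replicate 2 (-0.17, adjusted p = 0.10), WT replicate 1 (-0.22, adjusted p = 0.105) or WT replicate 2 (-0.24, adjusted p = 0.0807). On the log2(TPM + 1) scale the value was 0.063, and with library size alone -0.017.

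TAT1 (YBR069C; 376574 to 378433, minus strand) encodes a permease for tyrosine that also carries branched-chain amino acids. It had 124 and 109 CPM in nhp6ab and 151.5 and 151.5 CPM in WT. The WT libraries were almost equal and both nhp6ab libraries were below them. In edgeR TAT1 had a log2 fold change of -0.38 ± 0.07 SE and an adjusted p = 0.00421. The call was lost without WT replicate 1 (-0.38, adjusted p = 0.0515), with library size alone (-0.17, adjusted p = 0.0506) and on the log2(TPM + 1) scale (-0.09, adjusted p = 0.319). The reference annotates a noncoding antisense RNA, TBRT (YNCB0014W; 376610 to 378633, plus strand), over 1824 of the coding bases of TAT1, and notes that its transcription represses BAP2 and TAT1. TBRT has no line in the deposited table. No source used here says whether counting used strand, and TBRT reads may be part of the TAT1 count. The ratio of BAP2 to TAT1 in TPM was 2.21 and 2.32 in nhp6ab and 2.05 and 2.02 in WT. The next gene upstream of TAT1, ALG14, an enzyme subunit of protein glycosylation, rose (0.56 ± 0.06, adjusted p = 0.000467), and TIP1, downstream of BAP2, was not called (-0.04).

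**Figure D2:**
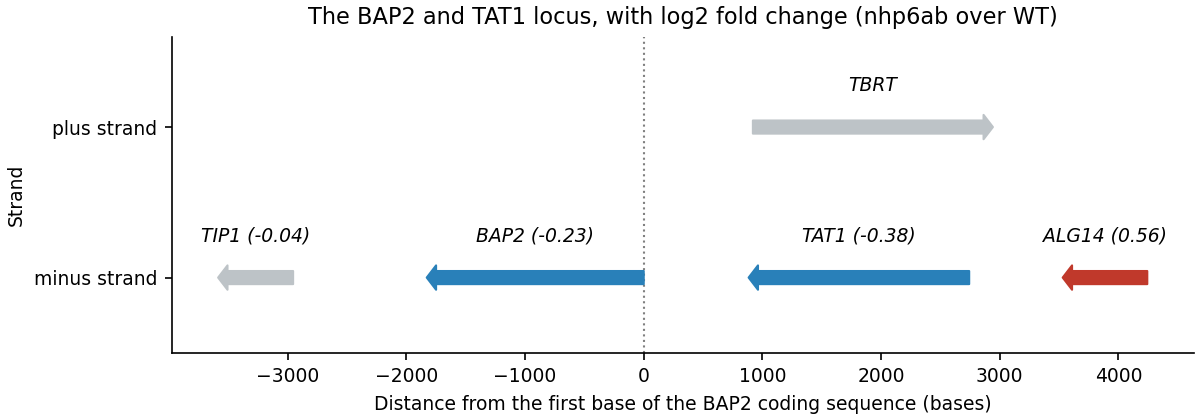
Map of the BAP2 and TAT1 locus to scale, with the distance from the first base of the BAP2 coding sequence in bases. Arrows point in the direction of transcription and numbers are TMM-scaled log2 fold changes, nhp6ab over WT; blue genes were called lower, the red gene ALG14 (0.56) higher, and grey ones were not called (TIP1) or not measured (TBRT).

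BAP3 (YDR046C; chromosome IV, 548762 to 550576, minus strand), the close relative of BAP2, also encodes a branched-chain amino acid permease. It had 120 and 162 CPM in nhp6ab and 176 and 197 CPM in WT. Both nhp6ab libraries were below WT, but replicate 2 nearly reached it. In edgeR BAP3 had a log2 fold change of -0.40 ± 0.13 SE and an adjusted p = 0.0412. The call was lost without nhp6ab replicate 1 (-0.21, adjusted p = 0.0526), WT replicate 1 (-0.48, adjusted p = 0.118) or WT replicate 2 (-0.32, adjusted p = 0.251), and the value was -0.63 without nhp6ab replicate 2. It was lost in DESeq2 too (-0.40, adjusted p = 0.134). The ratio of BAP2 to BAP3 in TPM was 2.22 and 1.53 in nhp6ab and 1.73 and 1.51 in WT, so the groups overlapped.

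DIP5 (YPL265W; chromosome XVI, 41043 to 42869, plus strand) encodes the permease for glutamate and aspartate. It had 214 and 204 CPM in nhp6ab and 219 and 260 CPM in WT. The nhp6ab libraries were just below the lower WT library. DIP5 was not called, with a log2 fold change of -0.20 ± 0.09 SE (95% interval -0.40 to 0.01, adjusted p = 0.101 in edgeR). The value turned to 0.015 with library size alone, and DIP5 was called lower without WT replicate 1 (-0.32, adjusted p = 0.035). In the TMM-scaled CPM values all 10 permease genes had groups that did not overlap, as did 77.5% of all genes tested. In TPM the groups of GNP1, BAP3, TAT1 and DIP5 overlapped. The share of all genes whose groups overlapped was not counted in TPM, where the median gene was 0.283 higher in nhp6ab on the log2(TPM + 1) scale. For BAP2 both nhp6ab libraries (134 and 127 TPM) then lay above both WT libraries (124 and 126 TPM).

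**Figure D3:**
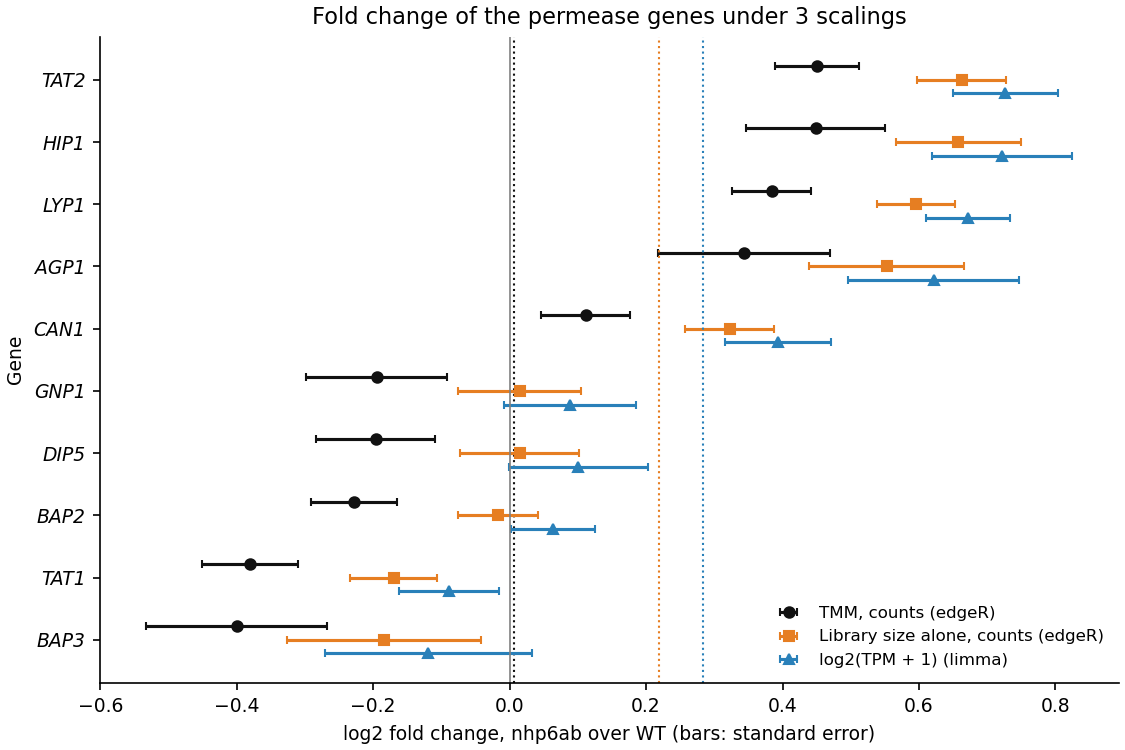
TMM-scaled log2 fold change (nhp6ab over WT) of each permease gene, with those from library size alone and from log2(TPM + 1); bars are standard errors and dotted lines are the median of all genes under each scaling (0.007, 0.220 and 0.283). The order of the genes hardly changes, while the whole set shifts with the median.

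Some permease genes varied more between replicates than most genes. In nhp6ab, replicate 1 exceeded replicate 2 by 0.40 on the log2 CPM scale for AGP1, by 0.32 for GNP1 and by 0.32 for HIP1. BAP3 went the other way, by -0.42. The median gap of all genes, in either direction, was 0.076, and 4.67 to 7.91% of genes had a larger gap than these 4. In WT the widest gap was that of DIP5 (-0.25), which 9.75% of genes exceeded. TAT2, LYP1 and DIP5 had gaps of 0.05 to 0.07 in nhp6ab, near that of the median gene.

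The share of each gene in the summed TPM of the 10 does not depend on how libraries are scaled. AGP1 made up 22.9 and 19.5% of the sum in nhp6ab and 16.9 and 17.6% in WT. LYP1 made up 14.97 and 16.0% in nhp6ab and 12.4 and 11.96% in WT. HIP1 held 8.07 and 7.29% in nhp6ab and 5.80 and 5.81% in WT. BAP2, BAP3 and TAT1, and likewise GNP1 and DIP5, each held less in both nhp6ab libraries than in either WT library, for example TAT1 with 5.46 and 5.42% in nhp6ab and 7.47 and 7.11% in WT. CAN1 held 4.29 and 4.42% in nhp6ab and 4.11 and 4.18% in WT. Shares sum to a fixed total, so a larger share of AGP1 makes the others smaller, and they were not tested.

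Of 11 other amino acid transporters of the plasma membrane, 4 rose, 3 fell and 4 were not called, with a median log2 fold change of 0.023. Of all genes tested, 24.5% were called higher and 25.0% lower, so these counts are near the background. The 4 that were not called, AGP2, AGP3, UGA4 and PTR2, had values between -0.09 and 0.16. PUT4, the proline permease gene, had 21.7 and 19.5 CPM in nhp6ab and 8.99 and 9.32 CPM in WT (adjusted p = 0.000157 in edgeR, log2 fold change 1.17 ± 0.10 SE). SAM3, for the S-adenosylmethionine permease, had 19.7 and 20.9 CPM in nhp6ab and 40.1 and 41.6 CPM in WT (-1.01 ± 0.06). MUP1, for the high-affinity methionine permease, had 60.2 and 48.9 CPM in nhp6ab and 97.5 and 94.0 CPM in WT (-0.81 ± 0.10). The 3 genes kept direction and call in all 11 alternative fits. GAP1, the general amino acid permease gene, was called higher as well (0.74 ± 0.22), but not in DESeq2 (adjusted p = 0.114) or without nhp6ab replicate 1 (0.36, adjusted p = 0.0677), WT replicate 1 (0.54, adjusted p = 0.23) or WT replicate 2 (0.95, adjusted p = 0.082). GAP1 was named after its values were seen, in addition to the rule.

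Genes of the SPS sensor and its regulators were mostly higher. Of 15 tested, 9 rose and 1 fell (median 0.246), against 24.5% higher and 25.0% lower of all genes. The list pools genes that act for the route with genes that act against it, and the activity of the route was not tested. It was chosen with earlier results of these data known, so its counts are not independent of them. SSY1, the sensor gene, had 50.9 and 47.4 CPM in nhp6ab and 34.4 and 36.7 CPM in WT (adjusted p = 0.00156 in edgeR, log2 fold change 0.47 ± 0.07 SE). RTS1, a regulatory subunit of phosphatase PP2A, rose by a similar amount, with 238 and 237 CPM in nhp6ab and 179 and 183 CPM in WT (0.40 ± 0.05). YCK2, a casein kinase that acts in this pathway, was the member that fell (-0.37 ± 0.05), without a call on the log2(TPM + 1) scale (-0.07, adjusted p = 0.36). STP1 and PTR3, named after their values were seen, had log2 fold changes of 0.45 ± 0.07 and 0.54 ± 0.09, and STP2 was not called (0.29 ± 0.11, adjusted p = 0.0566). STP2 was called higher in DESeq2 (adjusted p = 0.0378), with library size alone (0.50, adjusted p = 0.00318), in both TPM fits and without nhp6ab replicate 2 (0.44, adjusted p = 0.000777), and its value was 0.11 without nhp6ab replicate 1. Of the 6 targets of this route named above, BAP2, BAP3 and TAT1 were called lower under the same scaling, and AGP1 (0.34), GNP1 (-0.19) and DIP5 (-0.20) were not called. The 6 are not a full list of targets, and TAT2 (0.45, called higher) was not sorted as a target or a non-target. Without WT replicate 1 or WT replicate 2, fewer members of the SPS list were called higher, as were fewer of all genes. The list median was then 0.231 and 0.209.

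Of 13 genes for the traffic and ubiquitin tagging of permeases, 7 rose, 1 fell and 5 were not called (median 0.167), against 24.5% higher and 25.0% lower of all genes. This list, too, was chosen with earlier results of these data known. Without nhp6ab replicate 1, WT replicate 1 or WT replicate 2, fewer members were called higher, as were fewer of all genes. The list median was then 0.116, 0.138 and 0.186. BUL2, which encodes an adaptor of Rsp5, had 82.0 and 74.5 CPM in nhp6ab and 48.8 and 48.2 CPM in WT (adjusted p = 0.000213 in edgeR, log2 fold change 0.69 ± 0.06 SE). The arrestin-like adaptor genes ALY2 (0.55 ± 0.07) and ALY1 (0.27 ± 0.06) rose too, ALY1 without a call when WT replicate 1 (adjusted p = 0.0811) or WT replicate 2 (adjusted p = 0.0563) was left out. NPR1, a kinase that protects some permeases, though not all, from removal, was the member that fell (-0.21 ± 0.07). It was not called in DESeq2 (adjusted p = 0.107), and its value turned to 0.006 with library size alone.

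Eisosomes are furrows of the plasma membrane in which Can1 and other permeases reside. Of 7 eisosome genes tested, 4 rose and 0 fell in edgeR (median 0.217), against 24.5% higher and 25.0% lower of all genes. DESeq2 also called 0 lower, and none of the 7 had a negative log2 fold change with an unadjusted p under 0.05. The eisosome list was likewise chosen with earlier results of these data known. SUR7 had 56.6 and 54.3 CPM in nhp6ab and 33.4 and 29.5 CPM in WT (log2 fold change 0.81 ± 0.08 SE), and SEG1 rose by 0.45 ± 0.05. LSP1, a core component, rose by 0.26 ± 0.06 but was not called without WT replicate 2 (adjusted p = 0.0935) or nhp6ab replicate 1 (adjusted p = 0.0756). Without WT replicate 2 fewer members were called higher, as were fewer of all genes, and the list median was 0.120.

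Of 13 vacuolar amino acid transporter genes tested, 4 rose and 3 fell (median 0.006), near the 24.5% higher and 25.0% lower of all genes, and VBA3 was too low to test. RTC2, a transporter of basic amino acids, had 9.87 and 7.98 CPM in nhp6ab and 29.4 and 28.1 CPM in WT (log2 fold change -1.69 ± 0.11 SE). VBA1, another transporter of basic amino acids, had 42.8 and 43.4 CPM in nhp6ab and 85.3 and 89.0 CPM in WT (-1.02 ± 0.05). ERS1, which resembles the human cystine transporter, rose (0.67 ± 0.08). The 3 genes kept direction and call in all 11 alternative fits. The members called higher numbered 2 without WT replicate 1 and 8 with library size alone, where 47.1% of all genes were called higher.

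**Figure D4:**
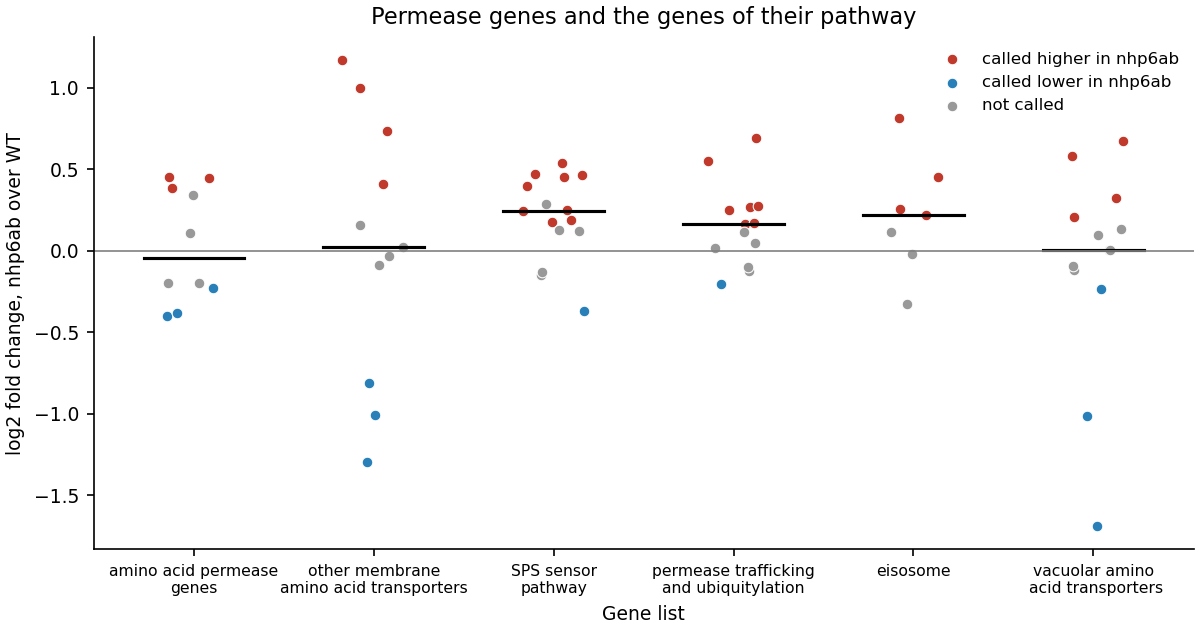
TMM-scaled log2 fold change (nhp6ab over WT) of the 10 permease genes and of 5 lists of related genes, 1 point per gene tested, with black bars at list medians. The permease genes span -0.40 to 0.45, a narrower range than the other plasma membrane transporters (-1.29 to 1.17) and the vacuolar ones (-1.69 to 0.67).

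The genes next to the permease genes were called in both directions or not at all. KCC4, which diverges from AGP1, rose (0.67 ± 0.06 SE), whereas FRM2, downstream of AGP1, fell (-0.92 ± 0.17). PIK1, 492 bases downstream of LYP1 on the same strand, rose by 0.41 ± 0.05, and DIS3, which diverges from TAT2, rose by 0.30 ± 0.05. AVT2, 454 bases downstream of CAN1, rose (0.58 ± 0.12), without a call when WT replicate 1 was left out (0.48, adjusted p = 0.0688). GIN4, downstream of GNP1, was called higher (0.21 ± 0.07, adjusted p = 0.0412 in edgeR) but lost the call in DESeq2 (adjusted p = 0.0556) and without nhp6ab replicate 2 (0.13), WT replicate 1 (0.17) or WT replicate 2 (0.26). TDH3, a glycolytic gene beyond the end of HIP1, fell (-0.32 ± 0.04), without a call on the log2(TPM + 1) scale (-0.03). The neighbours of BAP3 (RPC11 and HEM12) and of DIP5 (DIM1 and YPL264C) were not called, nor were SMT3 beside GNP1, CRH1 and BSC4 upstream of HIP1 and LYP1, or NPR2 beside CAN1. YOL019W-A, downstream of TAT2, was too low to test.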

How the data were processed

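The authors deposited RSEM expected counts and RSEM TPM values for polyadenylated RNA, 2 libraries per strain, grouped by the titles in the labels. Per the submitters' processing notes the build was sacCer3. No source used here gives the aligner, RSEM version, annotation or strand setting. Of 6688 identifiers, 6005 matched RefSeq's R64 reference, which gave symbols, coordinates and sequences, and all 10 permease genes matched. The 4 empty lines of the tables were skipped.

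Rounded expected counts were fitted with edgeR 4.0.16 in R 4.3.3, using TMM factors, the default low-count filter, a single term for strain (2 residual degrees of freedom) and quasi-likelihood tests, with Benjamini-Hochberg adjustment over 6422 genes. CPM values are TMM-scaled. The SE is the size of the log2 fold change over the square root of F, and 95% intervals are unadjusted. Alternatives used DESeq2 1.42.0 and limma 3.58.1. TPM values were used for levels between genes, ratios and an alternative test. The scripts were tested on simulated data. Sequences were compared with Biopython 1.88.

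The genes named are the 10 permease genes, the targeted genes, the neighbours and for each of the 5 pathway lists the 3 called members of lowest adjusted p. Marker genes, and GAP1, STP1, STP2, PTR3, NPR1 and uncalled transporters, were named after their values were seen. The permease genes and lists were chosen with earlier results of these data known. The planned promoter table was replaced by windows read from the genome.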

Additional observations from a re-analysis of the deposited data

How the results depend on the processing

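TAT2, HIP1 and LYP1 kept their direction in all 11 alternatives, and TAT2 and LYP1 also their calls. With library size alone the log2 fold changes were 0.553 (AGP1), 0.322 (CAN1), 0.015 (GNP1), 0.015 (DIP5), -0.017 (BAP2), -0.185 (BAP3) and -0.170 (TAT1). On log2(TPM + 1) they were 0.622, 0.394, 0.089, 0.10, 0.063, -0.119 and -0.088 in the same order, and on log2(TPM + 0.1) they were 0.625, 0.403, 0.090, 0.101, 0.064, -0.121 and -0.090. Under these scalings the median of all genes was 0.220, 0.283 and 0.299, against 0.007 with TMM. With no spike-in, which scaling is nearer to the RNA per cell was not tested. BAP3 lost its call in DESeq2 (-0.402), and the cause was not tested.

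With 1 library left out, fold changes ran from 0.122 to 0.530 (AGP1), -0.373 to -0.043 (GNP1), -0.295 to -0.173 (BAP2), -0.628 to -0.211 (BAP3), -0.482 to -0.293 (TAT1), -0.315 to -0.068 (DIP5), 0.274 to 0.598 (HIP1) and 0.040 to 0.173 (CAN1). The fits then had fewer samples. Over all genes, 901 to 1462 were called higher and 1063 to 1557 lower. The permease genes called lower numbered 1 to 3, and SPS genes called lower 1 to 2. Traffic genes called higher numbered 2 to 7 and lower 0 to 1, eisosome genes called higher 2 to 4, and vacuolar ones called higher 2 to 4.

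Over all genes, library size alone gave 3023 higher calls and 800 lower ones. The log2(TPM + 1) fit gave 3566 and 617, and the log2(TPM + 0.1) fit 3558 and 614. In each of these 3 fits 5 permease genes were called higher and 0 lower, and 0 traffic genes lower. SPS genes called lower numbered 0 in both TPM fits. Vacuolar genes called higher numbered 8, 9 and 8, and DESeq2 called 0 traffic genes lower.

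The deviations of same-numbered libraries from their strain means had a correlation of -0.0698. With 2 libraries per strain this cannot show whether same-numbered libraries were handled together, and the labels do not say. With the replicate block 1626 genes were called higher and 1686 lower, and AGP1 was called higher (0.332, adjusted p = 0.0192), as was STP2 (0.28, adjusted p = 0.0189).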

Other observations

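Of 7 genes often used as markers in strain construction, 3 were called higher in nhp6ab, 2 lower and 2 not at all, against 49.5% of all genes called, and the labels do not give the markers. HIS3, a histidine synthesis gene, had 466 and 330 TPM in nhp6ab and 115 and 133 TPM in WT (adjusted p = 0.000627 in edgeR, log2 fold change 1.39 ± 0.16 SE). URA3, a pyrimidine synthesis gene, had 157 and 149 TPM in nhp6ab and 64.2 and 66.1 TPM in WT (0.94 ± 0.06). LYS2, a lysine synthesis gene, had 24.2 and 21.98 TPM in nhp6ab and 51.3 and 48.5 TPM in WT (-1.40 ± 0.08). TRP1 (0.17 ± 0.06) and MET17 (-0.59 ± 0.06) were called too, TRP1 not in DESeq2 (adjusted p = 0.143) or with any 1 library left out except nhp6ab replicate 2, and LEU2 was not called (-0.14 ± 0.07, adjusted p = 0.129). Their part in the levels of the permease genes was not tested. ADE2, an adenine synthesis gene, had 529 and 241 TPM in nhp6ab and 180 and 196 TPM in WT and was not called (0.75 ± 0.32, adjusted p = 0.091). Its nhp6ab replicate 1 was the higher one.

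Of 4 alpha-specific genes, 3 were called lower in nhp6ab, against 25.0% of all genes, and MF(ALPHA)1 was not called (0.17 ± 0.07 SE). MF(ALPHA)2, the minor alpha-factor gene, had 276 and 299 TPM in nhp6ab and 940 and 829 TPM in WT (-1.92 ± 0.09 SE), STE3, the a-factor receptor gene, had 83.1 and 82.5 TPM in nhp6ab and 112 and 108 TPM in WT (-0.71 ± 0.06), and SAG1, the alpha-agglutinin gene, had 182 and 193 TPM in nhp6ab and 327 and 307 TPM in WT (-1.05 ± 0.07). The 3 kept direction and call in all 11 alternatives.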
